A study of Mus musculus with 2 samples.

Results

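Genes of blood coagulation and of the receptors that restrain or sense it were compared between B-Gal positive (B-Gal+) cells and negative (B-Gal-) cells of healing mouse skin. The set held 10 genes chosen by name: the coagulation factor genes F13a1, F10, F7, F3 and F5, the anticoagulant genes Thbd, Procr and Tfpi, and the thrombin and protease receptor genes F2r and F2rl1. Of these, 9 had a probe set naming them alone, out of 19938 such genes on the array, and each of the 9 had 1 probe set. F2rl1, the gene of protease-activated receptor 2, had no probe set in the annotation used here and was not analysed. Total RNA came from skin scar tissue of TCF reporter mice, a genotype taken to mean that a transgene reports the activity of TCF proteins, which carry beta-catenin signals to DNA. Both groups carried the reporter and were taken 1 week after wounding, and they differed in the label B-Gal- or B-Gal+, read here as the absence or presence of the reporter enzyme beta-galactosidase. The strain, the reporter's promoter, the animals' age, the method that separated the cells and the number of mice behind each array were not stated in the labels, and the design text describes homogenised microdissected wound tissue. No reporter transcript was measured here to check the group labels. Each group was 1 Affymetrix Mouse Gene ST array, so no difference below has an error or a test, and the number of arrays limits the precision. The samples are RNA pools, in which fewer cells of a type and less RNA per cell cannot be told apart.

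Coagulation outside the vessel starts when tissue factor, a membrane protein of cells around vessels, binds the circulating protease factor VII. This pair activates factor X, which with its cofactor, factor V, makes thrombin, and factor XIII then cross-links the fibrin that thrombin forms. Thrombomodulin and the endothelial protein C receptor turn thrombin towards the anticoagulant protein C, tissue factor pathway inhibitor blocks the tissue factor complex, and protease-activated receptors let cells respond to these proteases. Most circulating factors are made in the liver, while macrophages are known to make factor XIII A chains and, in some settings, factors VII and X.

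The genes lay on both sides of the comparison. The factor genes F13a1, F7 and F10 had B-Gal+ values at least 2-fold higher, whereas the initiator F3, its inhibitor Tfpi, the protein C receptor gene Procr and the thrombin receptor gene F2r had values at least 2-fold lower. Thbd and F5 differed by less than 2-fold. Values are log2 probe set values as deposited, read as log2 from their range, and a difference is the B-Gal+ value minus the B-Gal- value. A gene counted as expressed when at least 1 array lay above a floor of 5.59, set at the 95th percentile of 1194 genes for olfactory and vomeronasal receptors, used as a stand-in for genes that are off. All 9 measured members passed it, and both of their values lay above it. Among the 13784 expressed genes, 9.92% were at least 2-fold higher and 12.7% at least 2-fold lower, against 3 and 4 of the 9 members. Together 7 of the 9 members differed this much, against 22.6% of expressed genes. At 4-fold, 2 members were higher and 2 lower, against 3.01% and 5.72% of expressed genes, or 4 of 9 against 8.73% either way. The members were chosen with results of these arrays known, so these shares describe the set and support nothing about it. The median difference of the members was -0.14, beside 0.06 over expressed genes, and the members lay on both sides of 0, from -3.16 to 4.34.

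**Figure D1:**
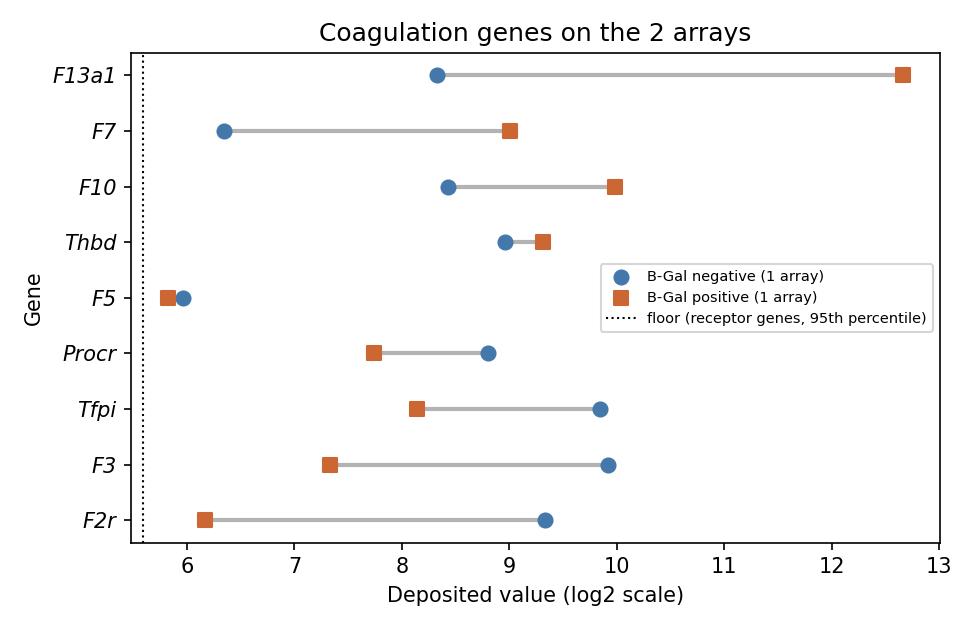
Deposited log2 value (horizontal axis) of each of the 9 measured coagulation genes (rows), with circles for the B-Gal- array, squares for the B-Gal+ array and a dotted line at the floor of 5.59. The widest gaps are those of F13a1, from 8.32 to 12.67, and F2r, from 9.33 to 6.17, in opposite directions.

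Among the factors, the fibrin cross-linking enzyme had the largest difference. F13a1, which encodes the catalytic A chain of factor XIII, had a log2 value of 8.32 in B-Gal- cells and 12.67 in B-Gal+ cells. It was 20.3-fold higher in B-Gal+ cells, a log2 difference of 4.34 that ranked 19 from the top among expressed genes. Probe sets differ in brightness, so levels are compared between arrays and not between genes. F7, the gene of the protease that tissue factor binds, had a log2 value of 6.34 on the B-Gal- array and 9.01 on the B-Gal+ array. It was 6.34-fold higher in B-Gal+ cells (log2 difference 2.66, rank 177 from the top). Its B-Gal- value lay 0.76 above the floor, so the level there was low. F10, which encodes factor X, had log2 values of 8.43 and 9.98, and was 2.92-fold higher (log2 difference 1.55, rank 687 from the top).

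The other factors went the opposite way or showed little difference. F3, the gene of tissue factor, had a log2 value of 9.91 in B-Gal- cells and 7.33 in B-Gal+ cells. It was 6.01-fold lower in B-Gal+ cells (log2 difference -2.59), with rank 486 from the lowest difference among expressed genes. Thus F3 and F7, whose products form the initiating complex, had differences of -2.59 and 2.66, close in size and opposite in sign. On the B-Gal+ array F3 still lay 1.74 above the floor. F5, the gene of the cofactor of factor X, had log2 values of 5.97 and 5.82, which are 0.38 and 0.24 above the floor. It differed by -0.14, and a gene so near the floor has little room for a lower value to be seen.

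Of the anticoagulant genes, Tfpi and Procr were lower and Thbd was not. Tfpi, which encodes tissue factor pathway inhibitor, had log2 values of 9.84 in B-Gal- and 8.14 in B-Gal+ cells. It was 3.26-fold lower in B-Gal+ cells (log2 difference -1.70, rank 963 from the lowest). Procr, the endothelial protein C receptor gene, had log2 values of 8.80 and 7.74 and was 2.08-fold lower (log2 difference -1.06, rank 1664 from the lowest). Procr lay just inside the 2-fold threshold, and once 32 was added to the linear values of both arrays its difference was -0.96, just outside it. Thbd, the gene of thrombomodulin, had log2 values of 8.96 and 9.31, a difference of 0.35 (1.28-fold). The receptors that take part in protein C activation, encoded by Thbd and Procr, therefore had differences of unlike sign, of which that of Thbd was under 2-fold.

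The thrombin receptor had the lowest difference of the set. F2r, which encodes protease-activated receptor 1, had a log2 value of 9.33 in B-Gal- and 6.17 in B-Gal+ cells. It was 8.94-fold lower in B-Gal+ cells (log2 difference -3.16, rank 305 from the lowest). Its B-Gal+ value lay 0.58 above the floor, so this fold rests on a low level. Of the other thrombin receptor genes, F2rl2 had log2 values of 5.41 and 5.62 and F2rl3 of 5.84 and 5.58, close to the floor and without a difference of 2-fold.

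**Figure D2:**
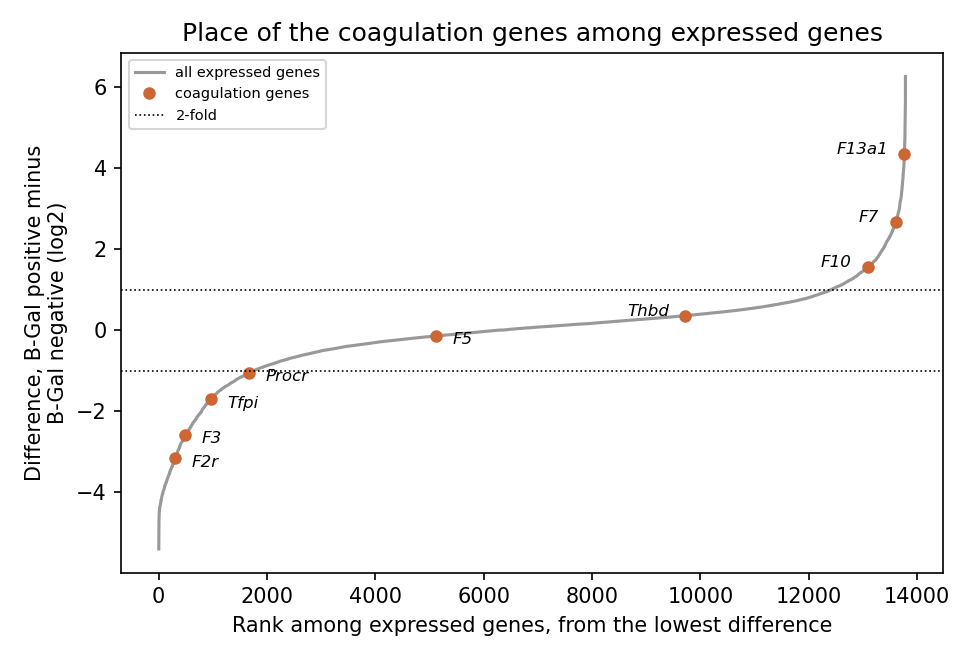
Log2 difference between the arrays (vertical axis) of all 13784 expressed genes, sorted by rank from the lowest difference (horizontal axis), with points for the 9 coagulation genes and dotted lines at 2-fold. F13a1, F7 and F10 sit on the steep upper end, F2r, F3, Tfpi and Procr on the lower end, and F5 and Thbd on the flat middle.

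Promoter sequence was searched for 3 motifs, the AP-1 site, the PU box and the GC box (GGGCGG). The stretches with a match to the first pair, those of F13a1, F3, F2r and Procr, are shown. The stretches of F10, Tfpi and F5 held no match to that pair, and the start of F7 lay inside another of its transcripts. The sequences are from RefSeq, build GRCm38.p6, and run 5′ to 3′ on the gene's strand, ending just before the outermost transcript start of the gene. For Procr that end lies at -93 from the start used to count positions, and for the other genes shown at -1. Capitals mark each match to TGANTCA, the core sequence of AP-1 (Jun and Fos) sites, and to GAGGAA, the core of the PU box bound by the myeloid factor PU.1, both searched on both strands. In these windows the matches of the pair of motifs did not overlap.
F13a1 (chr13:37050245-37050494, minus strand): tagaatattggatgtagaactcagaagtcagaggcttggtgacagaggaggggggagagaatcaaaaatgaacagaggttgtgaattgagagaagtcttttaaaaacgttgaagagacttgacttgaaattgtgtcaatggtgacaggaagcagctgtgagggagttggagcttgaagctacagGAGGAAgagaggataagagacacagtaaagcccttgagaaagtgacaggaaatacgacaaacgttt
F3 (chr3:121723287-121723536, plus strand): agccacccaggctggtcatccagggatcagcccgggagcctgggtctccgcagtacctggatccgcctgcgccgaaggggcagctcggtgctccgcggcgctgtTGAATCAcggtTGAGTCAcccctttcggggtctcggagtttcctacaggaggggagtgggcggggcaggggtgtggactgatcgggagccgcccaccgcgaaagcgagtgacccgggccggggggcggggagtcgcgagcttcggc
F2r (chr13:95618467-95618716, minus strand): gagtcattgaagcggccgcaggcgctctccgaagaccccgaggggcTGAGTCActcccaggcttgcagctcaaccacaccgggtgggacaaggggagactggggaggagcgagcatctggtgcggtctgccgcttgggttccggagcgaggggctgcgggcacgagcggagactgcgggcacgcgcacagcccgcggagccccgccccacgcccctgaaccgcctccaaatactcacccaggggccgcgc
Procr (chr2:155750967-155751124, plus strand): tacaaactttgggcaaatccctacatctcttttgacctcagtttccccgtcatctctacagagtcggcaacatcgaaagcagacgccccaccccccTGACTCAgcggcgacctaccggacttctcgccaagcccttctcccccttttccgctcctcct

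Counted over the whole window of 300 bases, from 250 before to 50 after a transcript start, F3 held 2 AP-1 matches, starting at -146 and -135 from the start. F2r held 1 match, at -204, and Procr held 1, at -154. No window of F13a1, F7, F10, Tfpi or F5 held one. An AP-1 match was present in 7.81% of all 32851 promoter windows and in 5.66% of those of expressed genes. Among expressed genes, it was present in 8.30% of windows of genes at least 2-fold higher and in 6.26% of those at least 2-fold lower. A PU box was present in both windows of F13a1, at -66 and 18 from the first start and at 15 from the second, in that of F7 at -144, and in both of Tfpi. It was absent from the windows of F10, F3, F2r, Procr and F5. It was found in 28.3% of all windows and 26.9% of those of expressed genes. Windows of genes at least 2-fold higher held it in 32.9%, and those of genes at least 2-fold lower in 25.6%. A GC box was present in the windows of F3 (-89, -58 and -24), F2r (-49) and F5 (-177) and in both of Tfpi (-159 and -41). Windows of F13a1, F7, F10 and Procr held no GC box. The GC box shares were 35.7% of all windows, 59.5% for expressed genes, 53.5% for higher and 60.8% for lower genes. A letter match is not a bound site, and no binding was measured here. Of the transcription factor genes known to act on F3, 11 of 12 were measured and expressed, and 0 differed 2-fold in either direction (median difference 0.21). With the median difference over all probe sets (0.14) subtracted from the B-Gal+ values, 1 was at least 2-fold lower. Fosl1, an AP-1 subunit gene, had the largest difference, with log2 values of 8.22 and 7.35 (difference -0.87). Jun had values of 12.58 and 12.39, Fos 12.47 and 12.54, and Nfkbia, a target and inhibitor of NF-kB, 12.17 and 12.90. Egr1, another of these genes, had 11.04 and 10.96. The part of these factors in the difference of F3 was not tested.

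Neighbouring protein-coding genes were read from the order of the RefSeq gene table. F7 and F10 lie next to each other in the mouse genome, followed by Proz, the gene of the anticoagulant cofactor protein Z. Proz had a log2 value of 5.05, under the floor, in B-Gal- and 6.15 in B-Gal+ cells, and was at least 1.48-fold higher. The flanking genes differed less: Mcf2l, before F7, had 6.62 on both arrays, and Pcid2, after Proz, had 7.18 and 7.21. Next to F13a1 lies Ly86, with log2 values of 7.79 and 11.68 (difference 3.90), and next to that Rreb1, with 7.91 and 9.42. Its neighbour on the other side, Nrn1, went the opposite way, from 6.23 to 4.36, the second value under the floor. Thbd lies beside Cd93, whose values were 9.07 and 11.65 (difference 2.58), against 0.35 for Thbd. F2r is followed by Iqgap2, at 7.67 and 9.79 (difference 2.12), opposite in sign to the -3.16 of F2r. Beside F3, Abcd3 had 9.07 and 8.98, and the gene after it, Arhgap29, had 9.59 and 6.15 (difference -3.44). Tfpi lies between Calcrl (8.35 and 8.33) and Ctnnd1 (9.18 and 9.23), and Procr between Edem2 (8.02 and 8.20) and Mmp24 (5.54 and 5.79), none of which differed 2-fold. Members thus had neighbours with differences of the same sign, of the opposite sign and of under 2-fold.

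The rest of the cascade was near the limit of detection. Of 13 genes of plasma coagulation factors and the contact system, 12 were measured by a probe set naming them alone and 2 were expressed, with 0 at least 2-fold different. Genes under or at the floor on both arrays were F2, F8, F9, F11, F13b, Fga, Fgb, Fgg, Kng1 and Kng2, among them prothrombin (F2, 5.46 and 5.54) and the fibrinogen chains. Vwf, the gene of von Willebrand factor, had 6.97 and 6.92. F12 had 5.48, under the floor, and 5.67. Of 11 hepatocyte markers measured, 8 were under the floor on both arrays, Alb (albumin) among them at 3.78 and 3.95. The other 3, Apoa1 (6.36 and 6.27), Apoa2 (6.17 and 6.43) and Tat (5.66 and 5.76), lay above it on both arrays and within 2-fold. F7, F10 and F13a1 were thus above the floor along with these 3, while the albumin and fibrinogen genes were not.

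In a list of plasma anticoagulants and related genes, those lower by 2-fold were Tfpi2 and Anxa8. Proc, Serpinc1, Serpind1, Serpina10 and Serpina5 were not above the floor on either array. Of 6 expressed out of 11, 2 were at least 2-fold lower and 1 was at least 2-fold higher on deposited values (median difference -0.68). Tfpi2, a relative of Tfpi that inhibits plasmin and other proteases, had log2 values of 10.29 and 6.70, with a difference of -3.59 that was larger in size than the -1.70 of Tfpi. Anxa8, an annexin gene, had 7.22 and 5.76 and was 2.76-fold lower. The gene higher was Proz, whose fold against the floor stayed under 2. Pros1, which encodes protein S, the cofactor of both activated protein C and TFPI, had 10.58 and 9.76, a difference of -0.82.

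Factors VII and X need a vitamin K-dependent carboxylation to work. Of 8 genes of this cycle and of factor secretion, all expressed, 4 were at least 2-fold lower in B-Gal+ cells and 1 was higher (median difference -1.23). Ggcx, the carboxylase, had log2 values of 9.98 and 7.65, a difference of -2.32. Vkorc1, which recycles vitamin K, had 10.72 and 8.52 and was 4.58-fold lower. Mgp, a carboxylated matrix protein gene, was at least 5.11-fold lower (7.94 and 5.14). Lman1, the cargo receptor gene known for the secretion of factors V and VIII, had 11.49 and 9.53 and was 3.89-fold lower, while that of its partner Mcfd2 had 8.70 and 8.96. Gas6, a carboxylated ligand of TAM receptors, was the gene higher, with 8.96 and 10.84 (3.70-fold). The carboxylase gene was lower on the array where F7 and F10 were higher.

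Fibrin removal genes were divided as well. Of 12 expressed plasminogen system genes out of 17, 3 were at least 2-fold lower and 1 was higher (median difference 0.19). Plat, the tissue-type plasminogen activator gene, had log2 values of 11.34 and 7.70 and was 12.4-fold lower in B-Gal+ cells. Plau, the urokinase gene, had 9.63 and 10.88 and was 2.39-fold higher. Serpinb2, an inhibitor of both activators, was 11.9-fold lower (11.41 and 7.84). Mrc2, a collagen uptake receptor that associates with the urokinase receptor, was 18.2-fold lower (10.66 and 6.48). The urokinase receptor gene Plaur had 9.34 and 10.06, a difference under 2-fold.

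F13a1 belongs to the transglutaminases. Of the other 8 genes of that family, 4 were expressed, 1 of them at least 2-fold higher and 0 lower (median difference 0.49). It was Tgm2, the tissue transglutaminase, with 9.41 and 10.92 (2.86-fold higher), against 20.3-fold for F13a1. The median was set by Tgm3 (5.33 and 5.90) and Tgm7 (5.40 and 5.80), both under the floor on the B-Gal- array. They were at least 1.24-fold and at least 1.16-fold higher. In a list of integrins, other fibrin-binding receptors and matrix ligands, the genes of the integrin chains of leukocytes, Itgam (8.72 and 11.42) and Itgb2 (9.51 and 12.15), were 6.52-fold and 6.27-fold higher. Itgb3, a chain of the platelet and endothelial fibrinogen receptors, was 4.97-fold lower (9.08 and 6.77). That list of 11 held 3 genes at least 2-fold higher and 3 lower, the matrix ligand gene Vtn among the lower ones.

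A list of the other thrombin receptors and of signalling genes of these receptors had differences on both sides. Of 17 expressed, F2rl2 and F2rl3 included, 5 were at least 2-fold higher and 2 lower (median difference 0.26). Arrb2, a beta-arrestin that uncouples such receptors, had 7.15 and 9.92 and was 6.82-fold higher. Gna11, a G protein subunit these receptors couple to, was 3.94-fold lower (9.14 and 7.16), while Gna13 had 9.88 and 11.29 and Gnaq 9.22 and 10.14. The phospholipase genes went apart, Plcb4 being 4.72-fold lower (8.35 and 6.11) and Plcb2 3.43-fold higher (6.26 and 8.04).

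**Figure D3:**
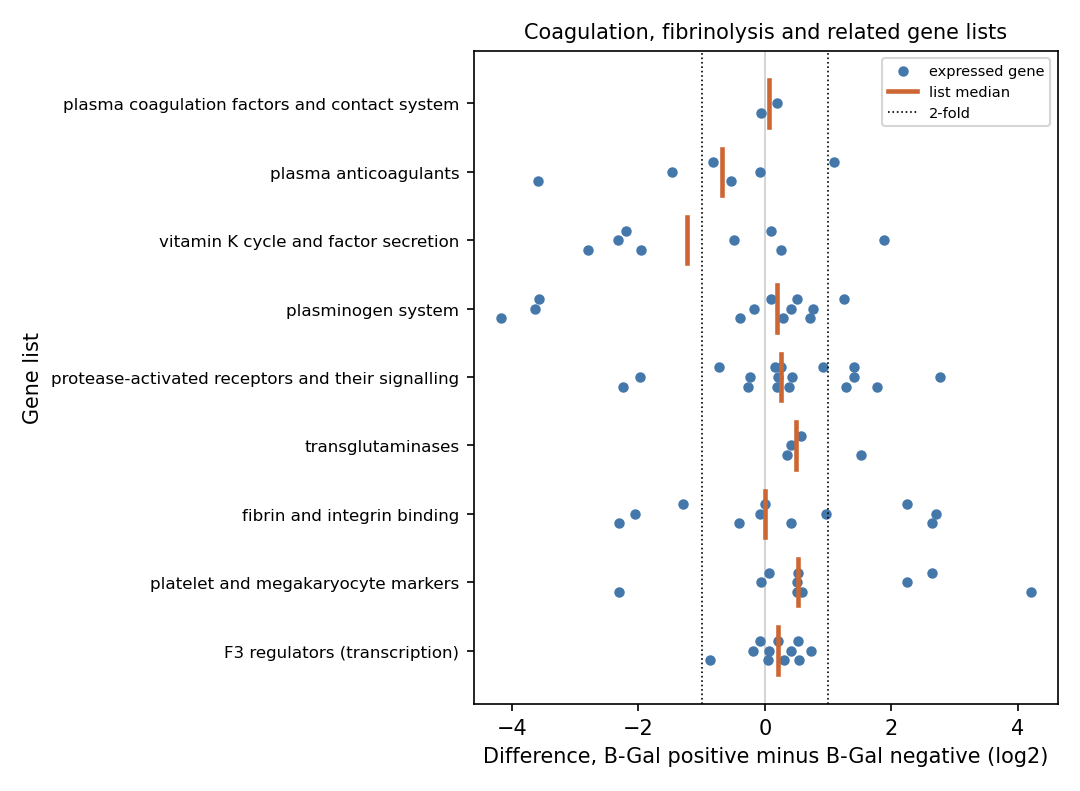
Log2 difference (horizontal axis) of each expressed gene (points) of 9 gene lists around coagulation (rows), with list medians as bars and dotted lines at 2-fold. Vitamin K cycle genes have the lowest median, -1.23, the expressed transglutaminases all lie above 0, and the regulators of F3 stay within 2-fold. Of the transglutaminases, Tgm3 and Tgm7 were under the floor on the B-Gal- array.

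Markers of cell types also differed between the arrays. All 15 macrophage markers had values at least 2-fold higher on the B-Gal+ array (median difference 3.29), and their summed level, on the log2 scale, was 12.26 in B-Gal- and 15.83 in B-Gal+ cells. The median of 5 expressed resident macrophage markers, of which F13a1 is one, was 5.16, and Timd4 was under the floor on both arrays. All 13 endothelial markers were lower in value, 9 of them at least 2-fold (median -1.31), with a summed level of 11.66 and 10.34. All 10 fibroblast markers were at least 2-fold lower (median -3.33, summed level 16.35 and 13.90), as were 7 of 8 pericyte and smooth muscle markers (median -2.80, summed level 13.36 and 9.89). No marker of these last 3 lists was under the floor on either array. The differences of F13a1 (4.34), F7 (2.66) and F10 (1.55) had the sign of the macrophage list. The platelet (0.52), erythroid (0.50), neutrophil (0.43) and hepatocyte (0.10) list medians had that sign too. The erythroid and neutrophil medians were those of Slc4a1 and Elane, under the floor on the B-Gal- array. The hepatocyte median was that of Tat, close to the floor. The receptor genes behind the floor had a median of 0.28. While 5 of 9 expressed neutrophil markers had higher values, S100a8 (-2.71), S100a9 (-3.41), Cxcr2 (-3.74) and Retnlg (-1.79) were lower. The summed neutrophil level was 11.11 in B-Gal- and 10.52 in B-Gal+ cells. The differences of Tfpi (-1.70), Procr (-1.06), F3 (-2.59) and F2r (-3.16) had the sign of the fibroblast, pericyte and smooth muscle, endothelial and mast cell lists alike. The T and NK cell (-0.79) and keratinocyte (-0.24) medians shared it. Thbd (0.35), which differed by less than 2-fold, had the sign opposite to the endothelial list. The part of cell makeup in these differences was not tested.

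**Figure D4:**
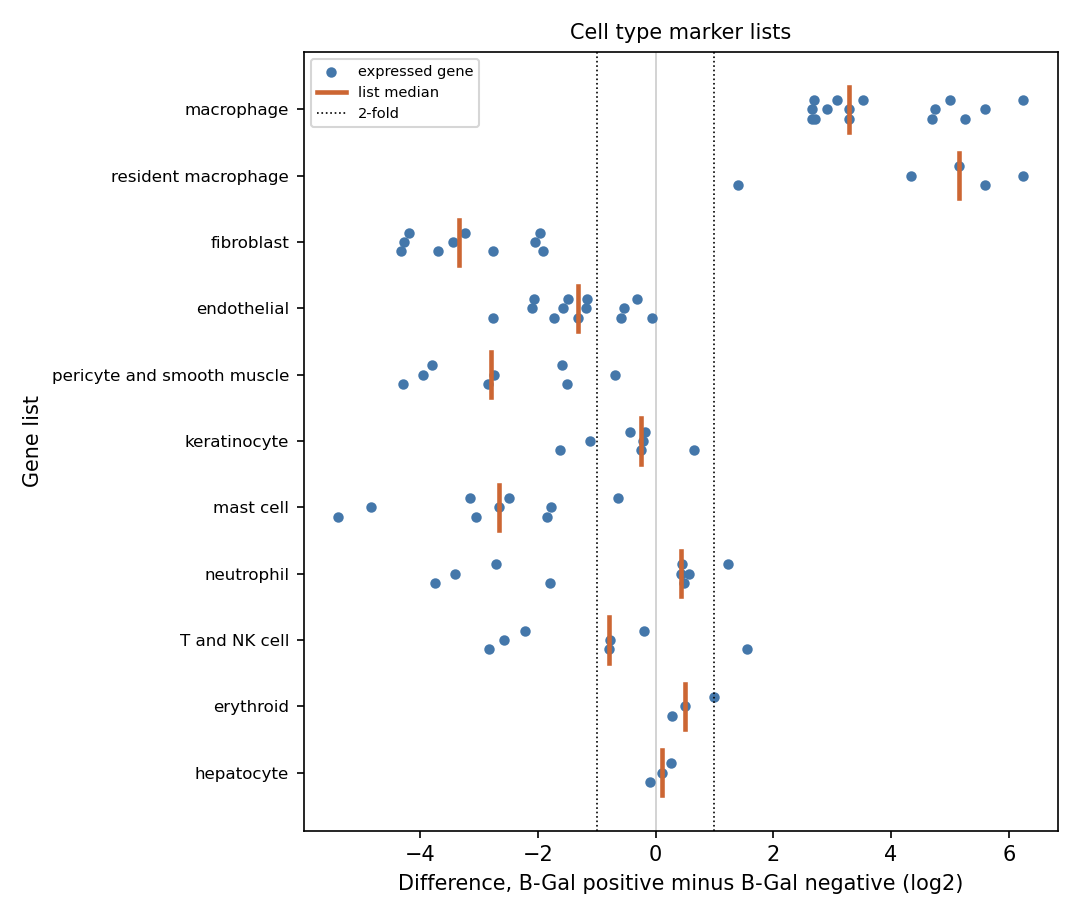
Log2 difference (horizontal axis) of each expressed marker gene (points) of 11 cell type lists (rows), with list medians as bars and dotted lines at 2-fold. Macrophage lists lie to the right and fibroblast, endothelial, pericyte and smooth muscle, and mast cell lists to the left.

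Other cell types known for these genes gave mixed values. Platelets also hold the factor XIII A chain. Of 16 platelet and megakaryocyte markers, 11 were measured and 10 expressed, with 3 at least 2-fold higher and 1 lower (median difference 0.52, summed level 10.22 and 11.77). Values were higher for 8 of the 10. Pf4 was 18.5-fold higher (6.93 and 11.14) and Ppbp 4.75-fold (6.51 and 8.76), chemokine genes that macrophages also express, and the ADP receptor gene P2ry12 was at least 3.71-fold higher (4.84 and 7.48). Treml1 had 6.34 and 6.86, Tubb1 6.22 and 6.74, Gp9 5.51 and 6.02, Nfe2 5.14 and 5.73, the integrin gene Itga2b 6.52 and 6.46, and Gp5 6.01 and 6.08, and Clec1b lay under the floor on both arrays. Of 13 keratinocyte markers, which bear on F3 since epidermis makes tissue factor, 7 were expressed and Krt1, Krt6a, Krt17, Dsg3, Lor and Ivl were under the floor on both arrays. At least 2-fold lower were 2 of them, Krt5 at 7.11 and 5.48 and Krt14 at 7.06 and 5.94. Of 9 expressed neutrophil markers 4 were at least 2-fold lower and 1, Mmp8, was higher by that threshold on deposited values (at least 1.56-fold against the floor), while 5 of the 9 had higher values and the median was 0.43 (summed level 11.11 and 10.52). At least 2-fold lower were also 8 of 9 expressed mast cell genes (summed level 11.60 and 8.78), and of 7 expressed T and NK cell markers 3 were lower and 1 higher. The erythroid list had 3 expressed genes, all within 2-fold.

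Genes with the most similar differences to the extreme members were found over the 2 arrays, which gives 1 difference per gene and no measure of co-variation. Nearest to F13a1 (4.34) were Clec4a1, a myeloid lectin gene (4.27), Il10, the anti-inflammatory cytokine gene (4.26), and Pgap6 (4.24). Nearest to F2r (-3.16) were Fat1, a large cadherin gene (-3.16), Lamb2, a laminin chain gene of basement membranes (-3.16), and Adgra2, an adhesion receptor gene (-3.17).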

How the data were processed

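Expression was measured on 2 arrays, 1 per group. The values are log2 expression per probe set as deposited by the authors. Partek is named, with no version or role, per the submitters' processing notes, and the sources used here do not give summarization, normalization or log base. Log2 was inferred from values between 1.16 and 14.8, and every fold depends on it. Array medians were 6.18 (B-Gal-) and 6.16 (B-Gal+), and no scaling was added. Of 28853 probe sets, 21789 named 1 gene in the platform annotation, 1621 several and 5443 none. The brightest single-gene probe set was used. Gene IDs of 21698 matched a RefSeq table (GRCm38.p6), with 0 symbols differing. The floor and 2-fold threshold are defined with the results. Values at or under the floor on 1 array give a fold against the floor, written as at least that size. The receptor genes behind the floor differed by a median of 0.28, with 2.68% of them past 2-fold. No p-value was computed, since 1 array per group leaves no spread.

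The members and gene lists were chosen with earlier results of these data known. Named were all members, the list genes with the largest differences, and genes a result turns on. Genes named beyond up to 3 per list, the genome neighbours and the motifs were chosen after values were seen. Alternatives were median centring, loess (span 0.4, 3 iterations), quantile normalization, an offset of 32, values raised to the floor, mean of probe sets, no filter, a floor at the 99th percentile, a filter at the gene median, and thresholds of 1.5-fold and 4-fold. Python 3.11.15, pandas 2.3.3 and statsmodels 0.14.6 were used. Only the 2-fold threshold was tried on simulated differences, without the floor, the choice of probe sets or the gene lists.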

Additional observations from a re-analysis of the deposited data

How the results depend on the processing

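Each of the 9 members kept its sign under the 3 normalizations and the offset, and 35 of these 36 values stayed on the same side of 2-fold, the exception being Procr with the offset (-0.96). Values raised to the floor and the mean of probe sets could not move a member, since each has 1 probe set and lies above the floor. F13a1 ran from 4.203 to 4.349, F7 from 2.27 to 2.66, F10 from 1.41 to 1.55, F3 from -2.73 to -2.37, Tfpi from -1.84 to -1.60 and F2r from -3.30 to -2.70. The members' median, -0.14, was -0.28 with centred differences, -0.29 with loess, -0.19 with quantile normalization and -0.0937 with the offset. It was -0.35 with either stricter filter, and the members' mean was 0.0285, of opposite sign. The stricter filters drop F5, which leaves an even number of members. The median over the other lists, 0.21 as reported, was 0.0691 with centred differences, 0.16 with loess and 0.20 with quantile normalization. It was 0.18 with the offset or with values raised to the floor, 0.19 with no filter and 0.20 with the stricter filters. At 4-fold, 2 members were lower, 7 genes of the other lists higher, and 415 expressed genes higher and 788 lower. At 1.5-fold these were 2585 and 2765 expressed genes. Of 198 counts of single lists under the alternatives, 180 were within 1.5 times the reported one. The 180 include counts of 0 that stayed 0, which say little about stability. With centred differences 1 regulator of F3 was lower in place of 0. No paired analysis was possible because each group has 1 array. Low signal limits F5, F7 in B-Gal- cells and F2r in B-Gal+ cells.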
